A study of Mus musculus with 115 samples.

Results

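The hearts described here were those of wild type C57BL/6JEiJ mice that carried the control vector, 4 of the 22 hearts of the study, read in 22 libraries. They were chosen by the label of genotype and treatment: no allele was changed, and the treatment was 2.5e+11 vector genomes of AAV2/9Des-Gfp, an adeno-associated virus that carries the gene of green fluorescent protein, injected into the pericardium. What the letters Des stand for, and the letters NI in the sample titles, is not explained by the labels. Titles begin with a number and a letter. Here the number stands for the heart and the letter for a repeat library of it, which is an interpretation. Hearts 23, 24 and 25 had 6 libraries each and heart 70 had 4. The study collected hearts 1, 3, 6, 9 and 12 months after injection. The month and the age of each heart are not given, so that these hearts may differ in both. The Gfp transcript was not analysed here. The wider study set these mice beside mice without Ant1, the carrier that exchanges ADP and ATP across the inner membrane of heart mitochondria. No such comparison is made in what follows, which describes the baseline heart: which genes took the counts, how the members of gene families ranked, and which genes differed most and least between hearts.

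The working heart is a muscle that never rests. Its cells are packed with sarcomeres, in which myosin pulls on actin under the control of troponin and calcium, and with mitochondria that make ATP mainly from fatty acids. Myoglobin stores oxygen in the cytoplasm, creatine kinases buffer ATP, and the sarcoplasmic reticulum releases and takes back the calcium of every beat.

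Total RNA from heart tissue was reverse transcribed and amplified on a panel of 23930 amplicons, each assigned to a gene. Libraries of 1 heart were summed, which gave 34760481, 34428441, 33261907 and 30559079 counts for hearts 23, 24, 25 and 70. Levels are CPM, the counts scaled to equal library totals with TMM factors, and values of 4 hearts are always given in this order. Since each gene was read through 1 amplicon, counts do not grow with transcript length, but amplicons can differ in how well they amplify. A measure of this is the cytosolic ribosome, whose proteins are made in equal numbers. As an example, the amplicon of Rps9 stood at 1266 CPM, while those of Rplp0 and Rpl22 stood at 2.16 and 0.407 CPM. Orders between genes are therefore orders of amplicon counts, and only the comparison of 1 gene between hearts is free of this. Amplicons of Myh7, Slc25a5, Gapdh, Fabp3, Cpt1b, the haemoglobins and the genes of mitochondrial DNA were not analysed here.

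Heart 70 stood apart from the others. Over the 6134 genes with a mean of at least 20 CPM, the median absolute log2 difference was 0.089 to 0.11 between pairs of hearts 23, 24 and 25, and 0.16 to 0.17 between heart 70 and each of them. Its libraries sat in other count tables than those of hearts 23, 24 and 25, which shared 3 tables, so that heart 70 and its tables cannot be told apart. Between hearts 23, 24 and 25 each gene was tested on the 18 libraries with the table as a covariate. This test asks whether hearts differed beyond the spread of their repeat libraries. It called 3032 of 11669 genes, 26.0%, at an adjusted p below 0.05 in edgeR's quasi-likelihood test with Benjamini-Hochberg adjustment. The labels do not say that the letters mark separate tissue pieces, so the p-values measure only the spread between libraries, which may be technical. The count was 1315 without heart 23, 2614 without heart 24 and 1261 without heart 25, and 1955 with no table covariate. Over all tested genes the median ratio of the highest to the lowest of these hearts was 1.15. By summed counts, 42.3% of the called genes were highest in heart 23, 23.2% in heart 24 and 34.5% in heart 25. With total counts in place of TMM factors, 3256 genes were called, 31.1% highest in heart 23, 15.7% in heart 24 and 53.1% in heart 25. Such calls describe 3 animals, not a condition.

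Few genes took most of the counts. The 10 highest amplicons held 15.7%, 15.7%, 15.5% and 14.2% of the counts of the 4 hearts, and the 100 highest held 37.4%, 37.0%, 35.9% and 34.2%. Of all counts, 50% lay in 270, 274, 302 and 343 amplicons. The counts of heart 70 were the most evenly spread on each of these measures. About 6100 amplicons per heart reached 20 CPM (6110, 6084, 6103 and 6116), and 3683 to 4026 had no count at all.

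**Figure D1:**
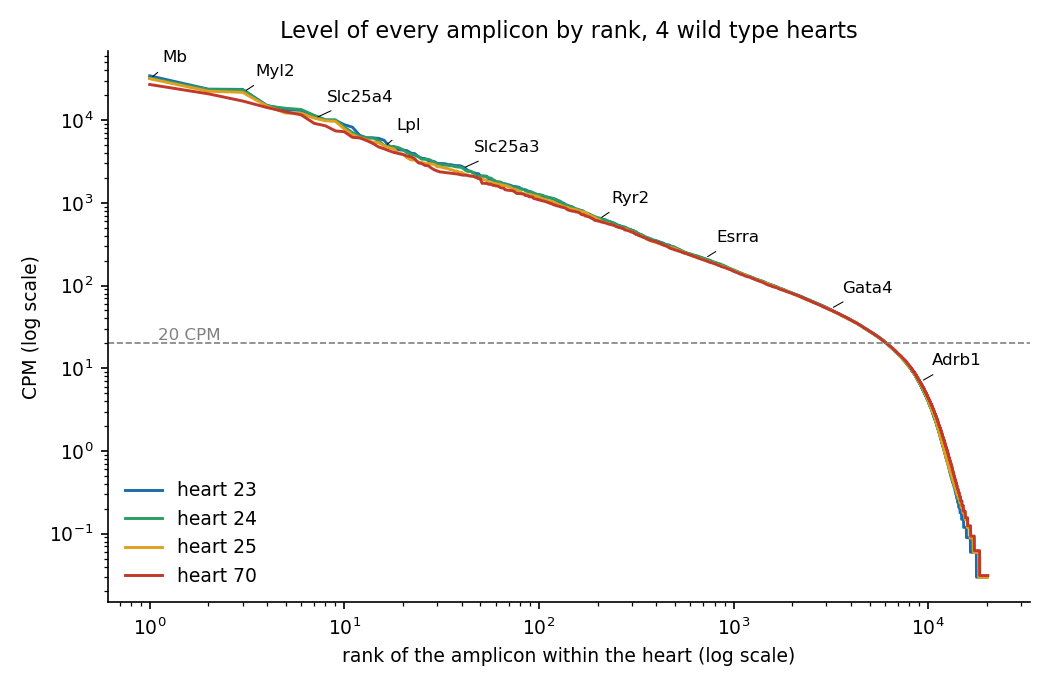
Level of each amplicon (CPM, log scale) against its rank within the heart (log scale), 1 line per heart. The lines of the 4 hearts nearly coincide from rank 100 on, and heart 70 lies lowest among the highest ranks, where Mb, Myl2 and Slc25a4 are marked at their mean.

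The highest amplicon in every heart was that of Mb, which encodes myoglobin. The gene lies at chromosome 15, 77015487 to 77050670 (GRCm38, GENCODE M21). Its level was 34302, 32204, 31649 and 26947 CPM, a mean of 31276 ± 3104 (SD, n = 4). Actc1 (chromosome 2, 114047282 to 114053548), the cardiac actin of the thin filament, followed at 23507, 23264, 22358 and 20781 CPM. Myl2 (chromosome 5, 122100951 to 122113472), the regulatory light chain of ventricular myosin, reached 23666, 23398, 21636 and 17021 CPM. Heart 70 was the lowest for all 3 genes, and the values of Actc1 and Myl2 overlapped. Atp2a2, the pump that returns calcium to the sarcoplasmic reticulum, was the fifth amplicon at 13382, 13421, 12166 and 14200.1 CPM, here with heart 70 as the highest. Slc25a4 (chromosome 8, 46206797 to 46211284), which encodes Ant1, was the seventh at 11267, 11413, 10558 and 8531 CPM. Of the 30 highest amplicons, 27 were of protein-coding genes of contraction, oxygen storage, calcium handling, energy metabolism, protein folding or the hormone Nppa.

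The other 3 were non-coding. Malat1, a nuclear RNA of nearly all cells, was the fourth amplicon at 15066, 14826, 14756 and 12596 CPM. Rpph1, the RNA part of the enzyme that trims transfer RNA precursors, stood at 13116, 13894, 12078 and 11572 CPM, and Rmrp, the RNA of a related enzyme, at 8801, 8231, 7801 and 7402 CPM. Heart 70 was the lowest for each of the 3.

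The upstream sequences of some of these genes carry letters known from muscle and mitochondrial promoters. Of these, 3 are shown, chosen because they hold such letters and belong to genes of contraction or of ATP synthesis at the top of the ranking. They are the 250 bases before the annotated start in RefSeq (GRCm38.p6), read on the strand of the gene. Capitals mark a CArG box, the site known for serum response factor, in Actc1 and Myl3. In Atp5g3 they mark the letters TCAAGGTCA, here on the reverse strand, the element known for estrogen-related receptors.
Actc1, minus strand, chr2:114052876-114053125: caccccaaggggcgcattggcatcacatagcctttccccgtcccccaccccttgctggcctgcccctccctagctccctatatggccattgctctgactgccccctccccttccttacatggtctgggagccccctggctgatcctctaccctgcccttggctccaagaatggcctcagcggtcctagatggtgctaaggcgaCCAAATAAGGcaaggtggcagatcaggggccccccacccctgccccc
Myl3, plus strand, chr9:110763428-110763677: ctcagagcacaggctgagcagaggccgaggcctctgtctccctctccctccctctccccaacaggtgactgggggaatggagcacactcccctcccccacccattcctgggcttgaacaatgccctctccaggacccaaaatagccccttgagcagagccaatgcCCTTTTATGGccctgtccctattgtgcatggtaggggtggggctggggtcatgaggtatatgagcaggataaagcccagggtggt
Atp5g3, minus strand, chr2:73911327-73911576: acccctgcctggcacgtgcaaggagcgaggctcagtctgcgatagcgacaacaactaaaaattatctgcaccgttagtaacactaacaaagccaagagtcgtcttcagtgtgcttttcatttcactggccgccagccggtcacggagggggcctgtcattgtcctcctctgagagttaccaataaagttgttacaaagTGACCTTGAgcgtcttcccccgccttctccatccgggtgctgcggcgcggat
The capitals begin 47, 85 and 52 bases before the start in Actc1, Myl3 and Atp5g3. A promoter entry was found for 22 of the 30 highest amplicons (28 promoters) and for 77 of the 100 highest (99 promoters). Among 32851 promoters of the table, 1.47% held a CArG box, against 2 of 28 (7.14%) and 6 of 99 (6.06%) in these sets. The letters TCAAGGTCA stood in 0.387% of all promoters and in 1 promoter of each set, that of Atp5g3. The letters GGAATG of the MCAT element stood in 12.6% of all promoters, in 25.0% of the 28 and in 12.1% of the 99. The letters TATAAA stood in 12.4%, 7.14% and 6.06%, the MEF2 site in 2.92%, 3.57% and 5.05%, and TGATAA, a form of the GATA site, in 7.94%, 10.7% and 14.1%. Among the 6197 promoters of panel genes of at least 20 CPM, the shares were 1.42% for the CArG box, 0.226% for TCAAGGTCA, 10.8% for GGAATG, 6.49% for TATAAA, 1.95% for the MEF2 site and 3.63% for TGATAA. Both strands were searched in the same 250 bases, and a match is a description of letters, not a site in use.

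By function, 19 gene lists were summed, which together held 40.5%, 40.1%, 38.9% and 37.2% of the counts. Among these lists, proteins of the sarcomere and its Z-disc took the most, 12.3%, 12.3%, 12.1% and 11.6% of the counts of the 4 hearts. Shares also depend on how much of a list was measured. This was 45 of 47 genes for the sarcomere, but 19 of 83 for cytosolic ribosomal proteins. Troponin T (Tnnt2) stood at 10030.2, 10077, 9818 and 9134 CPM, the light chain Myl3 at 9925, 10067, 9651 and 7231 CPM and tropomyosin (Tpm1) at 6112, 6327, 6142 and 4255 CPM. In each of the 3, hearts 23, 24 and 25 lay close together and heart 70 lay below them. Myh6, the motor itself, was spread otherwise: it stood at 4267, 3872, 3511 and 5672 CPM, with heart 70 the highest. Titin (Ttn), the spring of the sarcomere, showed the same order at 2818, 2459, 2125 and 2978 CPM. Before TMM scaling, Myh6 stood at 5531 to 6358 CPM in the 4 libraries of heart 70. In the same tables, 12 libraries of 3 hearts of other groups held 4642 to 6628 CPM. In the tables of hearts 23, 24 and 25, 6 libraries of 1 such heart held 3759 to 4861 CPM. Those groups differ in genotype, and the part of the tables was not tested. Between hearts 23, 24 and 25, Myh6 differed 1.203-fold (adjusted p = 3.69e-08 in edgeR's quasi-likelihood test), and Tnnt2 did not pass (adjusted p = 0.714). With no table covariate Myh6 did not pass either (adjusted p = 0.128 in edgeR's test). Of 42 sarcomere genes tested, 32 were called, against 26.0% of all tested genes and 33.9% of those of at least 20 CPM. By summed counts 25 of the 32 were lowest in heart 25, as were 42.4% of all called genes. With total counts these were 15 of 29 called members and 25.3% of all called genes. The median ratio of the highest to the lowest of these hearts was 1.16 in the list. It was 1.15 over all tested genes, which include genes of low counts. At 20 CPM or more, the median SD of log2 CPM over 4 hearts was 0.154 in the list and 0.118 for all genes.

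Oxygen storage and ATP buffering formed the next of the single lists, with the complexes of the respiratory chain counted apart, at 3.86%, 3.69%, 3.73% and 3.33% of the counts. Mb alone made up 85.4% of it. The mitochondrial creatine kinase Ckmt2 stood at 4339, 4393, 3875 and 3409 CPM and the cytosolic muscle form Ckm at 474, 459.6, 477 and 486 CPM. Ckm had nearly the same level in all 4 hearts, while Ckmt2 was lowest in heart 70.

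The respiratory chain and ATP synthase together took 10.5%, 10.2%, 9.56% and 8.92% of the counts over 70 measured genes. The share fell in the order of hearts 23, 24, 25 and 70, and so did those of ATP synthase (3.09%, 2.89%, 2.77% and 2.62%), complex III (1.44%, 1.36%, 1.29% and 1.26%) and cytochrome c with complex IV (2.84%, 2.70%, 2.46% and 2.32%). Complex I, which takes electrons from NADH, was highest in heart 24, at 2.55%, 2.63%, 2.49% and 2.17%. Complex II took the least of the 5 complexes, 0.577%, 0.572%, 0.551% and 0.548%. Of 69 tested members of the chain and the synthase, 54 were called between hearts 23, 24 and 25, against 26.0% of all tested genes and 2077 of the 6128 tested at 20 CPM or more. Their median ratio of the highest to the lowest heart was 1.12, so that the calls rest on small differences in well-counted genes. The 1.15 over all tested genes includes genes of low counts. At 20 CPM or more, the median SD of log2 CPM over 4 hearts was 0.162 for the members and 0.118 for all genes. Among the 54, 33 were highest in heart 23, 21 in heart 24 and none in heart 25, where 51 were lowest. Of the 66 members of at least 20 CPM, 53 were lowest in heart 70 among the 4, against 42.8% of all genes at that level. With total counts 37 members were called, and by summed counts none was highest in heart 25 and 31 were lowest there, against 25.3% of all called genes. With TMM factors 53 of 54 were, against 42.4%. With total counts 47 of 66 were lowest in heart 70 against 27.2% of all genes.

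Atp5g3, which encodes the rotor ring subunit of ATP synthase, led this class at 8217, 7070.3, 6651 and 6187 CPM. Its catalytic beta and alpha subunits, Atp5b and Atp5a1, stood at 6543, 6120.3, 5777 and 5225 CPM and 6015, 5664, 5342 and 4739.5 CPM. Hearts 23, 24, 25 and 70 were in falling order for all 3. The largest spread among high members of complex IV was that of Cox6a2, the muscle form of subunit 6A, at 5708, 4639, 3934 and 3944 CPM. It was 1.43-fold higher in heart 23 than in heart 25 (adjusted p = 1.89e-13, edgeR's quasi-likelihood test). Sdha, the catalytic subunit of complex II, was nearly level at 1188, 1228, 1135 and 1179 CPM and did not pass (adjusted p = 0.0939, edgeR). In heart muscle counts a lower share can mean fewer muscle cells in the tissue piece or less of these RNAs per cell, which bulk counts cannot tell apart.

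Genes of the extracellular matrix ran the other way. Their share was 0.508%, 0.550%, 0.583% and 0.621%, rising in the order in which that of the respiratory chain fell. Of 36 tested matrix genes 21 were called, against 26.0% of all tested genes, with a median ratio of 1.13. By summed counts 15 of the 21 were highest in heart 25, against 34.5% of all called genes, and 15 were lowest in heart 23, against 35.6%. Col1a1, a chain of fibrillar collagen, stood at 132.1, 141.99, 157.2 and 220.0 CPM, and Col3a1, of the other main fibrillar collagen of the heart, at 36.1, 38.4, 41.5 and 64.1 CPM. Decorin (Dcn), a proteoglycan of fibroblasts, was the highest matrix amplicon and did not follow this order, at 1146, 1175, 1188 and 1050.2 CPM.

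**Figure D2:**
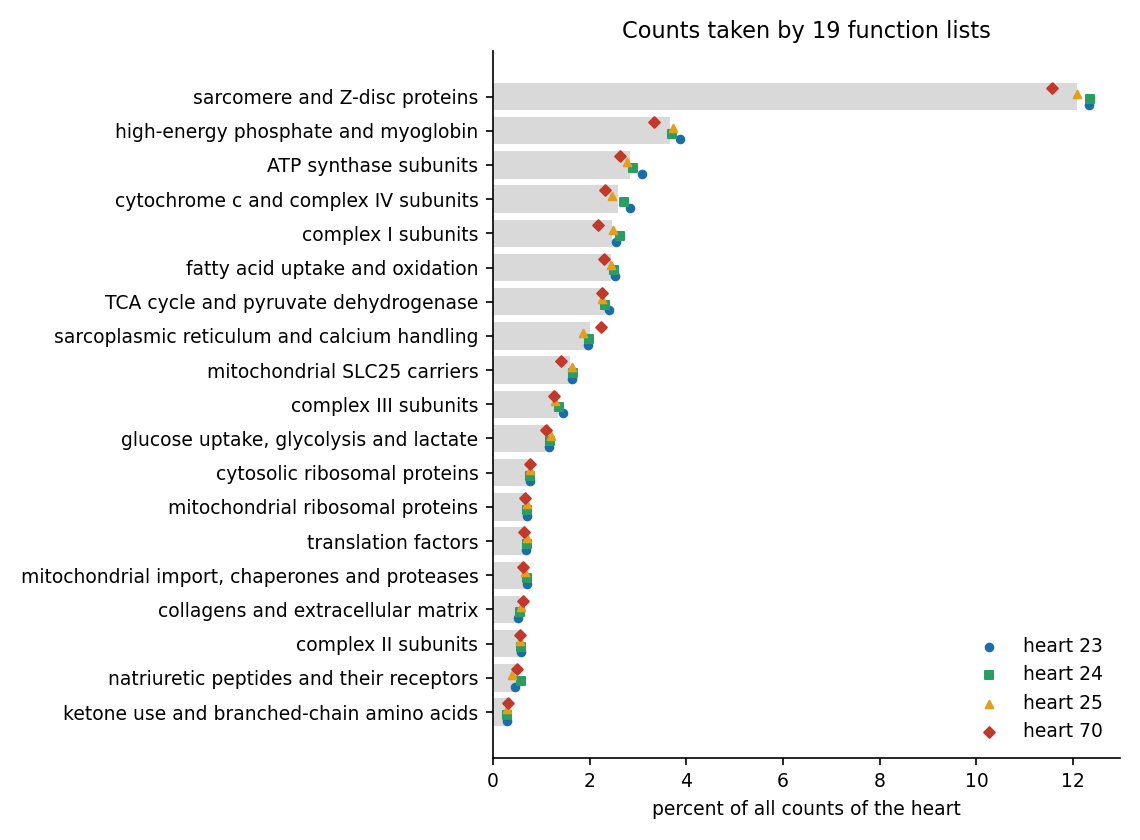
Percent of all counts of a heart taken by each of 19 function lists. Bars are the mean over 4 hearts and points the single hearts; heart 23 lies right of heart 70 in the lists of ATP synthase and of complexes III and IV, and left of it in collagens and extracellular matrix.

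Fatty acid uptake and oxidation took 2.52%, 2.50%, 2.44% and 2.30% of the counts, the TCA cycle with pyruvate dehydrogenase 2.39%, 2.32%, 2.26% and 2.25%, and glucose uptake and glycolysis 1.17%, 1.17%, 1.19% and 1.09%. Lpl, which frees fatty acids from lipoproteins at the vessel wall, was the highest measured gene of these lists, at 4738, 4786, 4895 and 4497 CPM. Fabp3, Cpt1b and Gapdh were not analysed. Ech1, an isomerase of the oxidation of unsaturated fatty acids, stood at 3994, 3611, 3301 and 3043 CPM and Cd36, which takes up fatty acids, at 1768, 1999, 1973 and 1421 CPM. Ech1 fell in the order of the hearts, as the respiratory chain did. Idh2, the mitochondrial isocitrate dehydrogenase that uses NADP, was close in hearts 23, 24 and 25 and lower in heart 70, at 3147, 2936, 2954 and 2020.5 CPM. Aldoa, the muscle aldolase and highest measured gene of the glycolysis list, showed the same pattern at 2984, 3055, 2903 and 2230.1 CPM. Oxct1, which starts the use of ketone bodies, was the reverse, with heart 70 above 3 level hearts at 748, 752, 758 and 919 CPM. Of the glycolysis list 6 of 17 tested genes (35.3%) were called, near the 33.9% of all genes of at least 20 CPM, and of the fatty acid list 19 of 26.

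Calcium handling took 1.97%, 1.98%, 1.86% and 2.24% of the counts, with heart 70 the highest. Atp2a2 made up 66.1% of it. The release channel Ryr2 stood at 610.4, 611, 499.5 and 792 CPM, lowest in heart 25 and highest in heart 70. Casq2, which stores calcium in the reticulum, was closer between hearts at 1007, 938, 882 and 959.6 CPM. Asph, which includes the junctional protein junctin, was among the least variable genes of all, at 559.7, 563, 540.2 and 560.2 CPM.

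Cytosolic ribosomal proteins took 0.766%, 0.757%, 0.772% and 0.758% of the counts over 19 measured genes, and mitochondrial ribosomal proteins 0.692%, 0.695%, 0.696% and 0.653% over 69. In the cytosolic list 5 of 16 tested genes were called, and in the mitochondrial list 17 of 69, both near the 26.0% of all genes. Translation factors took 0.678%, 0.699%, 0.697% and 0.645%, lowest in heart 70 as were the mitochondrial ribosomal proteins, and 9 of 19 tested were called. Eef1a2, the muscle and nerve form of the elongation factor, stood at 828, 860.4, 786 and 633 CPM, while the amplicon of Eef1a1 gave 3.24 CPM on average.

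Ranks within families were examined in 36 families. Of pairs of neighbours in these orders with both members at 20 CPM or more, 91 kept their order in all 4 hearts and 46 did not, and in 72 the values of the 2 genes did not overlap between hearts. The amplicon limit given above holds for each of these orders, and members not analysed here, such as Myh7, have no rank.

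In most contractile families 1 member held nearly all counts. Among actins, Actc1 took 93.1% of the family, ahead of Actb of all cells (1341, 1211, 1387 and 1383 CPM), the smooth muscle form Acta2 (169.8, 183.3, 163.8 and 207.7 CPM) and the skeletal form Acta1 (90.9, 158.7, 134.5 and 178.7 CPM). Acta2 and Acta1 overlapped between hearts. Myh6, the adult cardiac heavy chain of the mouse, took 93.0% of the heavy chain counts, ahead of the non-muscle chain Myh9 (140.3, 144.5, 150.6 and 151.9 CPM) and of Myh7b (75.0, 88.2, 73.1 and 70.9 CPM). Among light chains the order was Myl2, Myl3 and the atrial Myl7 (1123, 1566, 923 and 1360.3 CPM), without overlap. The troponins of heart muscle ranked Tnnt2, Tnni3 and Tnnc1, and those of skeletal muscle stayed low: Tnni2 stood at 4.41, 3.67, 3.26 and 3.68 CPM.

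The mitochondrial carriers of the SLC25 family move metabolites across the inner membrane. Slc25a4 took 65.3% of their counts. The phosphate carrier Slc25a3 was next at 2811, 2739, 2676 and 2049 CPM, and the oxoglutarate carrier Slc25a11 the third at 1079.9, 969.7, 907 and 943 CPM. These 3 ranks did not overlap between hearts. Ucp2 stood at 197.2, 258, 252 and 349 CPM, highest in heart 70. Slc25a31, the translocator form of the testis, stood at 0.924, 1.402, 1.42 and 1.497 CPM. Of 37 tested carriers, 17 (45.9%) were called, against 26.0% of all tested genes and 33.9% of those of at least 20 CPM. For Slc25a4 the difference between hearts 23, 24 and 25 was small at 1.08-fold (adjusted p = 0.0462, edgeR's quasi-likelihood test), and heart 70 was lower than each of them. This call was lost without heart 24 (adjusted p = 0.0785 in edgeR's test), without heart 25 (adjusted p = 0.663 in edgeR's test) and with no table covariate (adjusted p = 0.515 in edgeR's test). Among carriers of at least 20 CPM, Ucp1 had the widest spread (SD of log2 CPM 1.13).

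Where muscle and general forms of a subunit exist, the muscle form usually led. In cytochrome oxidase Cox6a2 stood far above Cox6a1 (424, 378, 370.2 and 400.5 CPM). Cox4i1, which is not a muscle form, stood far above the lung form Cox4i2 (21.01, 18.3, 20.6 and 17.1 CPM). An exception to the lead of muscle forms was subunit 7A. There the general Cox7a2 (1649, 1545, 1230.2 and 1217 CPM) lay above the muscle form Cox7a1 (850.1, 954, 857 and 793 CPM) in all 4 hearts. Cox8b, the muscle form of subunit 8, stood at 3153, 3362, 2993 and 2363 CPM and the general Cox8a at 14.96, 12.3, 10.9 and 15.1 CPM. The mitochondrial creatine kinase Ckmt2 ranked above Ckm, and the other forms Ckb and Ckmt1 stayed at or below 2.06 CPM.

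Among glucose transporters Slc2a4, the insulin-dependent glucose transporter, stood at 373, 320.3, 325 and 355 CPM and Slc2a1 at 30.3, 28.4, 27.6 and 29.7 CPM. Hk2 led the hexokinases (421, 408, 414 and 464 CPM) ahead of Hk1 (126.8, 113.98, 124.5 and 120.9 CPM). Pfkm led the phosphofructokinases at 1322, 1319, 1242 and 1097 CPM. Ldhb (634, 655, 671 and 547 CPM) lay above Ldha (507, 443, 469 and 500.1 CPM) in each heart, with the 2 closest in heart 70. The order of pyruvate dehydrogenase kinases, which hold back glucose oxidation, was not fixed: Pdk4 stood at 480.0, 719.7, 884 and 765 CPM and Pdk2 at 552, 545, 514 and 483 CPM, so that Pdk2 led in heart 23 and Pdk4 in the other hearts.

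Sarcolipin (Sln) and phospholamban (Pln), the small proteins that restrain the calcium pump, stood at 338, 468, 307 and 409 CPM and 341, 307, 274 and 249 CPM. They overlapped, and were closest in heart 23, where Pln was slightly above Sln. Calcium pumps themselves were nearly all Atp2a2: the plasma membrane pump Atp2b1 stood at 63.8, 65.2, 67.3 and 67.2 CPM. Among small heat shock proteins, which hold sarcomere proteins in their fold, the order was Hspb7 (3424, 3244, 3119 and 3679 CPM), Cryab (1926, 2083, 2001 and 1955 CPM) and Hspb6 (1429, 1468, 1249.9 and 1410.1 CPM), without overlap. Fhl2, a LIM protein of the Z-disc, stood at 2379, 2124, 2122 and 1677 CPM, above Fhl1 at 161.2, 175.3, 170.2 and 153.6 CPM. Acsl1, which activates long-chain fatty acids, led its family at 918, 839, 782 and 866 CPM, and Ak1, the cytosolic adenylate kinase, led its own at 746, 712, 637 and 693 CPM. Cpt2 (95.1, 86.8, 88.7 and 94.8 CPM) and Cpt1a (88.6, 75.1, 76.5 and 73.9 CPM), which carry fatty acids into mitochondria, lay close together.

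Among regulators of mitochondrial genes, Ppargc1a, the coactivator PGC1 alpha, stood at 166.4, 196.9, 181.4 and 469 CPM. It lay below its partner Esrra (226, 222, 219 and 174.3 CPM) in hearts 23, 24 and 25 and far above it in heart 70, the heart with the lowest counts of the respiratory chain. Ppara, the receptor that drives fatty acid genes, stood at 130.8, 135.7, 148.7 and 143.9 CPM and was 1.15-fold higher in heart 25 than in heart 23 (adjusted p = 0.00833, edgeR's quasi-likelihood test). This call was lost without heart 23 (adjusted p = 0.0805 in edgeR's test), without heart 25 (adjusted p = 0.552 in edgeR's test) and without the first table (adjusted p = 0.357 in edgeR's test). Of 13 tested regulators 5 (38.5%) were called, near the 33.9% of all genes of at least 20 CPM. Among cardiac transcription factors Mef2a led at 311, 266, 264 and 345 CPM, followed by Tbx5 (106.9, 99.3, 77.8 and 122.5 CPM), Nkx2-5 (108.999, 104.2, 77.1 and 99.8 CPM) and Tbx20 (106.05, 98.7, 90.4 and 92.7 CPM), whose values overlapped. Of 16 tested factors 10 were called, against 26.0% of all tested genes. All 10 were highest in heart 23 among hearts 23, 24 and 25, as were 42.3% of all called genes, with a median ratio of 1.24. Gata4 was one of them at 56.6, 46.0, 46.0 and 57.6 CPM (adjusted p = 0.00135 in edgeR's quasi-likelihood test).

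**Figure D3:**
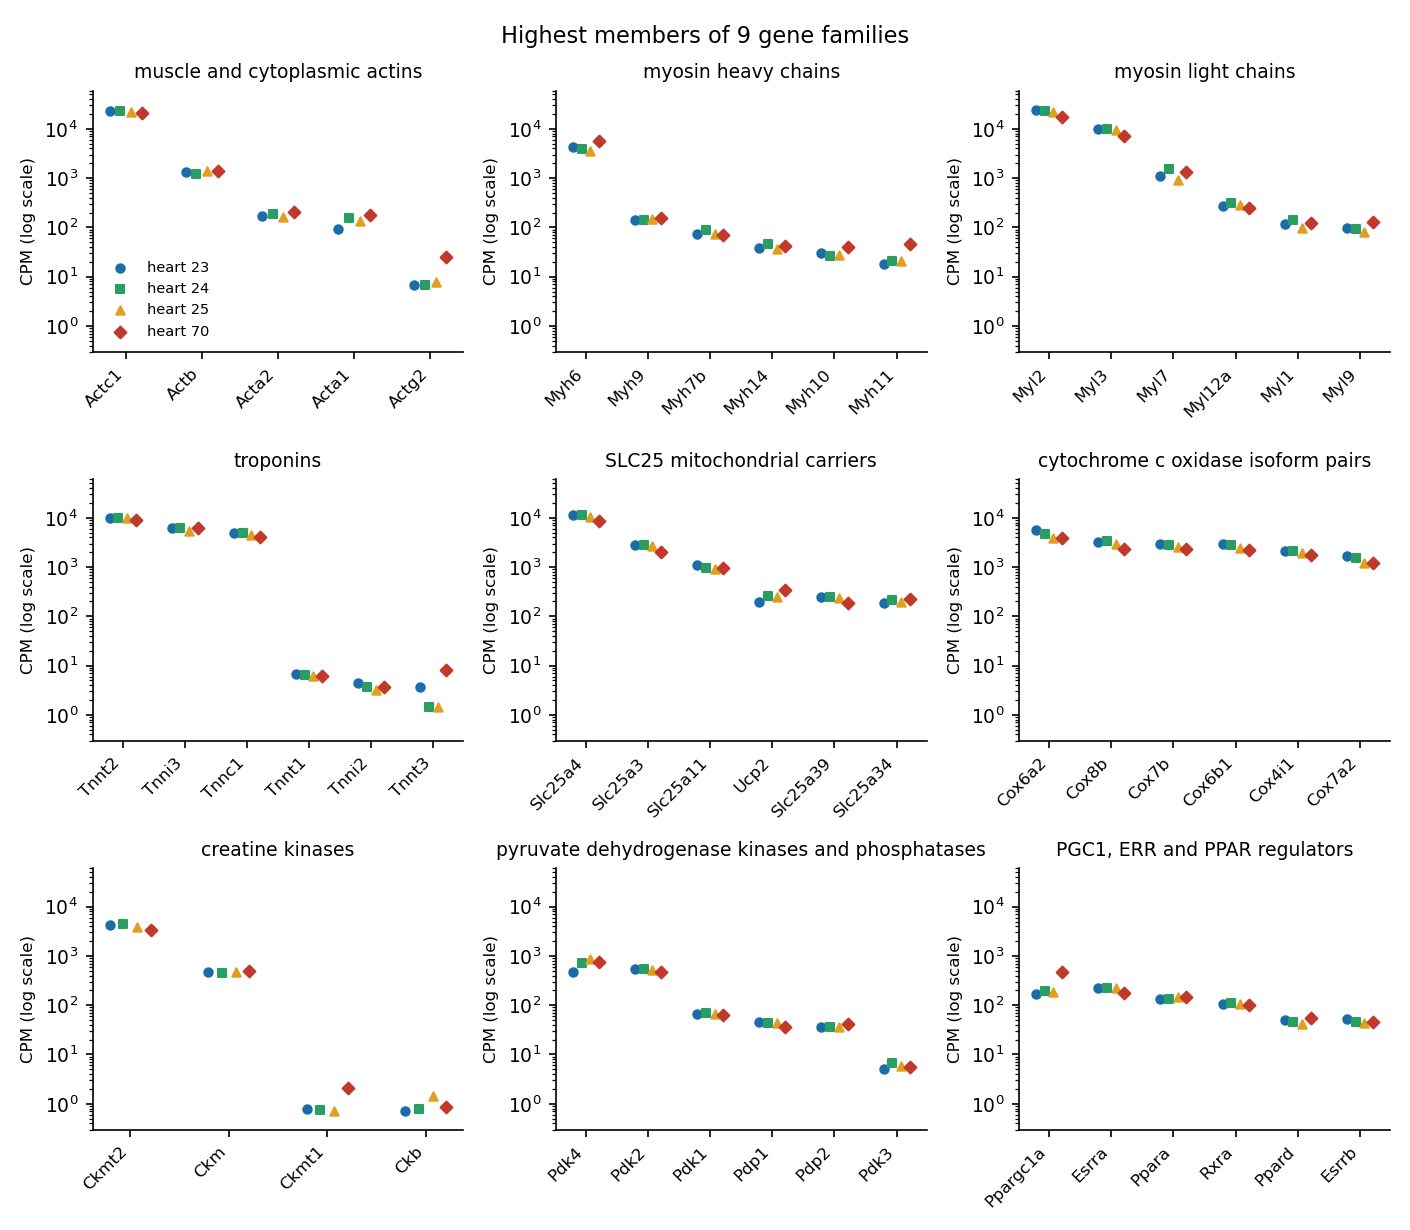
CPM (log scale) of the up to 6 highest members of 9 gene families, 1 point per heart. Actc1, Myh6, Slc25a4 and Ckmt2 stand above the next member of their family in each heart, whereas Ppargc1a and Esrra change places between heart 70 and the others, and Pdk4 and Pdk2 between heart 23 and the others.

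Channels and receptors were low by comparison. The gap junction protein Gja1 led connexins at 858, 793, 776 and 610.2 CPM. The calcium channel Cacna1c stood at 284, 279.9, 246 and 283 CPM. Among potassium channels Abcc9 (229, 215.1, 226 and 179.6 CPM), a subunit of the ATP-sensitive channel, and Kcnip2 (259, 210.7, 166.2 and 181.5 CPM), a subunit of the transient outward current, overlapped. Kcnip2 was 1.54-fold higher in heart 23 than in heart 25 (adjusted p = 7.34e-13, edgeR's quasi-likelihood test). Chrm2, the muscarinic receptor of the heart, stood at 80.4, 69.7, 63.7 and 84.3 CPM, and the alpha receptor Adra1b at 72.2, 61.6, 53.0 and 60.5 CPM. The amplicon of the beta receptor Adrb1 gave only 6.80 CPM on average.

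The tissue label was checked against markers of heart muscle and of other cells. The 7 cardiomyocyte markers summed to 25846, 25211, 23286 and 26331 CPM. Markers of fibroblasts summed to 2697, 2832, 2754 and 2828 CPM, those of endothelium to 1284, 1321, 1484 and 1258 CPM and those of pericytes to 1007, 939, 1005 and 845 CPM. These 3 sums were close between hearts, which does not hold for each member. Of the 9 fibroblast markers, 5 were highest in heart 70, 2 in heart 23, 1 in heart 24 and 1 in heart 25. The sum of macrophage markers was higher in hearts 25 and 70, at 344, 406, 522 and 508 CPM. Lysozyme (Lyz2) made up most of it, at 198.3, 256, 333 and 348 CPM. Of the 8 members, 4 were highest in heart 25, 2 in heart 24 and 2 in heart 70. Smooth muscle markers were highest in heart 70, at 205.8, 222, 209.3 and 302 CPM. This held for each of the 3 measured, the actin Acta2 (169.8, 183.3, 163.8 and 207.7 CPM), the myosin Myh11 (18.2, 20.3, 21.3 and 46.5 CPM) and calponin Cnn1 (17.8, 18.7, 24.2 and 48.2 CPM). Mesothelial markers, of the surface layer of the heart, did likewise at 55.6, 62.4, 58.3 and 115.1 CPM, with all 6 highest there. Markers of T cells, B cells and neutrophils summed to at most 5.46 CPM in any heart. Those of skeletal muscle summed to at most 32.3 CPM. Ddx3y, a gene of the Y chromosome, was level at 241, 229, 244 and 243 CPM, and Xist, the RNA of the inactive X chromosome, stood at 1.76, 0.179, 0.208 and 0.0936 CPM.

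For most genes the hearts were close. The median SD of log2 CPM over the 4 hearts was 0.12 among the 6134 genes of at least 20 CPM, and 0.082 over hearts 23, 24 and 25. Single libraries of 1 heart in 1 table differed with a median SD of 0.13. An SD above 0.5 was reached by 59 genes (0.962%). Of these, 42 were highest in heart 70, as were 28.4% of all genes of at least 20 CPM. The level and the SD both include heart 70, so that genes high in it alone can enter the 59. Several did so, such as Cyp2f2 and Wfdc2, which passed the level of 20 CPM through heart 70 alone. The number of 42 is therefore partly set by the choice of genes and is no test. Over hearts 23, 24 and 25 alone, with the level of 20 CPM set on these hearts, the number of genes above 0.5 was 39. Without heart 24 it was 96. Among the 124 genes of 1000 CPM or more, none reached 0.5, and their median SD was 0.14. A count of 608 of 11669 tested genes, 5.21%, was called between hearts 23, 24 and 25 with the highest at least 1.5-fold the lowest.

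**Figure D4:**
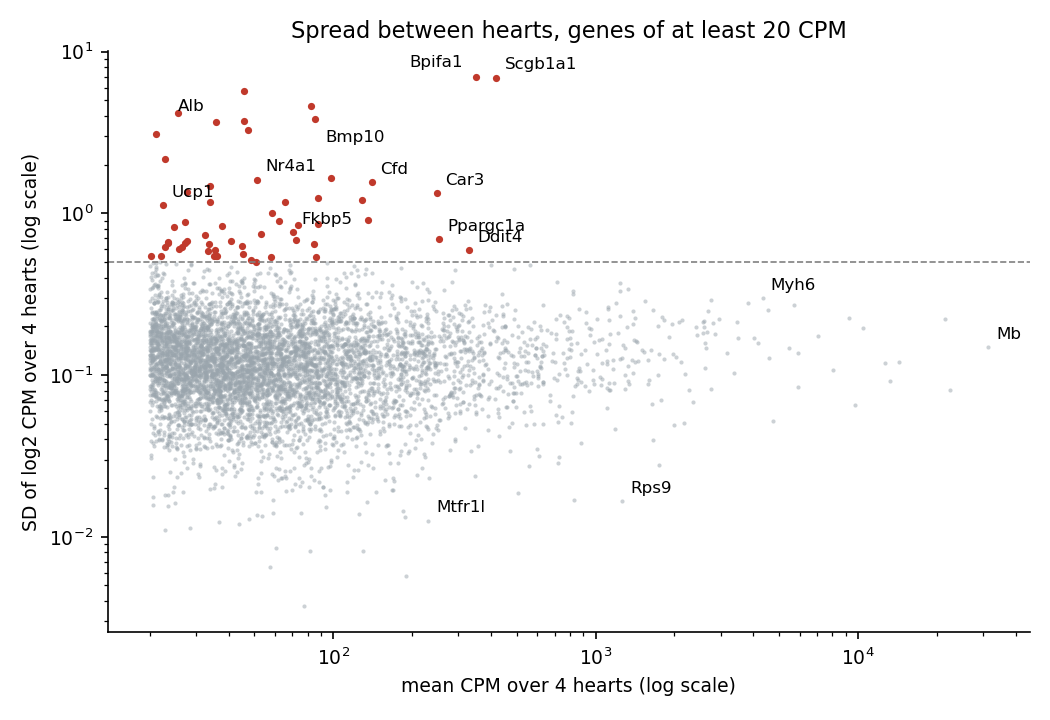
SD of log2 CPM over 4 hearts against mean CPM (both on log scales) for 6134 genes. Red points are the 59 genes above the dashed line at 0.5; airway genes, Bmp10 and Alb lie highest, and Rps9 and Mtfr1l are among the lowest.

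The 5 most variable genes were secreted proteins of the airways, read almost only in heart 70, and they passed the level of 20 CPM through that heart alone. Scgb1a1 (chromosome 19, 9083636 to 9087958), the secretoglobin of club cells, stood at 0.0596, 0.0298, 0.0889 and 1672 CPM, and Bpifa1, a protein of airway mucus, at 0, 0.0298, 0.0889 and 1404 CPM. With that, Scgb1a1 ranked 57th among all amplicons of heart 70. Scgb3a1 (0.566, 0.477, 0.445 and 327 CPM), Scgb3a2 (0, 0.0298, 0 and 182.6 CPM) and Bpifb1 (0.387, 0.239, 0.178 and 101.3 CPM) followed. Cyp2f2, an enzyme of club cells, stood at 4.08, 1.49, 1.48 and 182.9 CPM, and Wfdc2, of airway epithelium, at 1.37, 1.31, 0.741 and 81.2 CPM. Surfactant proteins of the alveoli were present at lower levels, Sftpc at 0, 0.0298, 0.0296 and 72.6 CPM and Sftpa1 at 0.0894, 0, 0.0593 and 38.9 CPM. All 5 lung epithelial markers were highest in heart 70, where they summed to 1798 CPM against 0.0895 to 0.267 CPM in the other hearts.

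A rule set after these values were seen, at least 20 CPM in 1 heart and at least 10-fold above each other heart, found 15 genes in heart 70, 3 in heart 23 and none in hearts 24 and 25. The 15 held 0.445% of the CPM of heart 70. Besides the airway genes they included Reg3g and Ltf, secreted defence proteins. All 4 libraries of heart 70, in 2 tables, held Scgb1a1, at 1427 to 1858 CPM before TMM scaling. The 12 libraries of 3 hearts of other groups in the same tables held at most 2.24 CPM. Whether tissue from outside the heart contributed to the other differences of heart 70 was not tested.

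Transcripts of the liver marked heart 23. Alb (chromosome 5, 90460897 to 90476602), serum albumin, stood at 159.3, 12.7, 10.9 and 0.249 CPM, Apoa2, of high-density lipoprotein, at 76.3, 7.58, 5.84 and 2.12 CPM, and Ttr, which carries thyroid hormone, at 13.7, 1.34, 0.949 and 0.312 CPM. Each fell in the order of the hearts. All 6 liver markers measured were called between hearts 23, 24 and 25, against 26.0% of all tested genes. Each was highest in heart 23 among these hearts, as were 42.3% of all called genes by summed counts. The 6 markers summed to 277, 23.4, 19.3 and 2.87 CPM. Alb was 14.002-fold higher in heart 23 than in heart 25 (adjusted p = 4.73e-41, edgeR's quasi-likelihood test). Its 6 libraries in heart 23 lay between 139.9 and 175.1 CPM before TMM scaling, and those of hearts 24 and 25 between 8.93 and 13.5 CPM.

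Atrial transcripts were higher in hearts 24 and 70. Bmp10 (chromosome 6, 87428994 to 87437677), a growth factor made by the right atrium, had the widest range among called genes of at least 20 CPM: it stood at 0.954, 161.6, 3.20 and 174.2 CPM, 124.5-fold higher in heart 24 than in heart 23 (adjusted p = 1.93e-44, edgeR's quasi-likelihood test; fold changes are from the fit with a prior count of 2). Nppa, the atrial natriuretic peptide, stood at 3616, 4816, 3021 and 3848 CPM, the atrial light chain Myl7 at 1123, 1566, 923 and 1360.3 CPM, and sarcolipin (Sln), the regulator of the calcium pump in atria, at 338, 468, 307 and 409 CPM. All 6 tested atrial markers were called, against 26.0% of all tested genes. Each was highest in heart 24 among hearts 23, 24 and 25, as were 23.2% of all called genes by summed counts. The 6 ventricular markers summed to 33650.1, 33510.4, 31334 and 24299 CPM, lowest in heart 70, and nearly all of this sum was Myl2 and Myl3. Of the 6 members, 3 were lowest in heart 70, 2 in heart 24 and 1 in heart 25. Nppb, the natriuretic peptide also made by ventricles, did not follow the atrial genes and fell from heart 23 to heart 70, at 628, 599, 393 and 330.4 CPM. How much of the atria each tissue piece held is not given by the labels, and its part in these differences was not tested.

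Adipocyte genes were higher in hearts 25 and 70. Cfd, the complement factor adipsin, stood at 40.1, 35.4, 132.8 and 353 CPM, Cidec, a protein of lipid droplets, at 9.33, 10.3, 40.3 and 76.2 CPM, and Plin1, the coat of the droplets, at 4.14, 3.28, 17.7 and 25.2 CPM. For each, hearts 25 and 70 did not overlap with hearts 23 and 24. All 5 tested white adipocyte markers were called, against 26.0% of all tested genes. Each was highest in heart 25 among hearts 23, 24 and 25. By summed counts so were 34.5% of all called genes, and 53.1% with total counts in place of TMM factors. With total counts as scaling, the liver, atrial, white adipocyte and brown adipocyte lists had the same counts of called genes, and the same counts highest in each heart by summed counts. Car3, carbonic anhydrase of fat and slow muscle (90.2, 77.3, 385 and 443 CPM), Scd1 (66.6, 39.1, 165.6 and 245 CPM) and Fasn (29.7, 22.7, 118.6 and 90.4 CPM), enzymes of fatty acid synthesis, and Pck1 (39.0, 29.2, 81.5 and 200.2 CPM), which supplies glycerol to fat cells, varied in the same way. Ucp1, the uncoupling protein of brown fat, stood at 6.56, 15.7, 35.4 and 32.6 CPM and was 5.26-fold higher in heart 25 than in heart 23 (adjusted p = 1.13e-23, edgeR's quasi-likelihood test). As background, Ucp1 is known in brown adipocytes rather than heart muscle. Fabp4, of fat and capillary endothelium, was highest in heart 25 at 765, 764, 945 and 758 CPM.

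**Figure D5:**
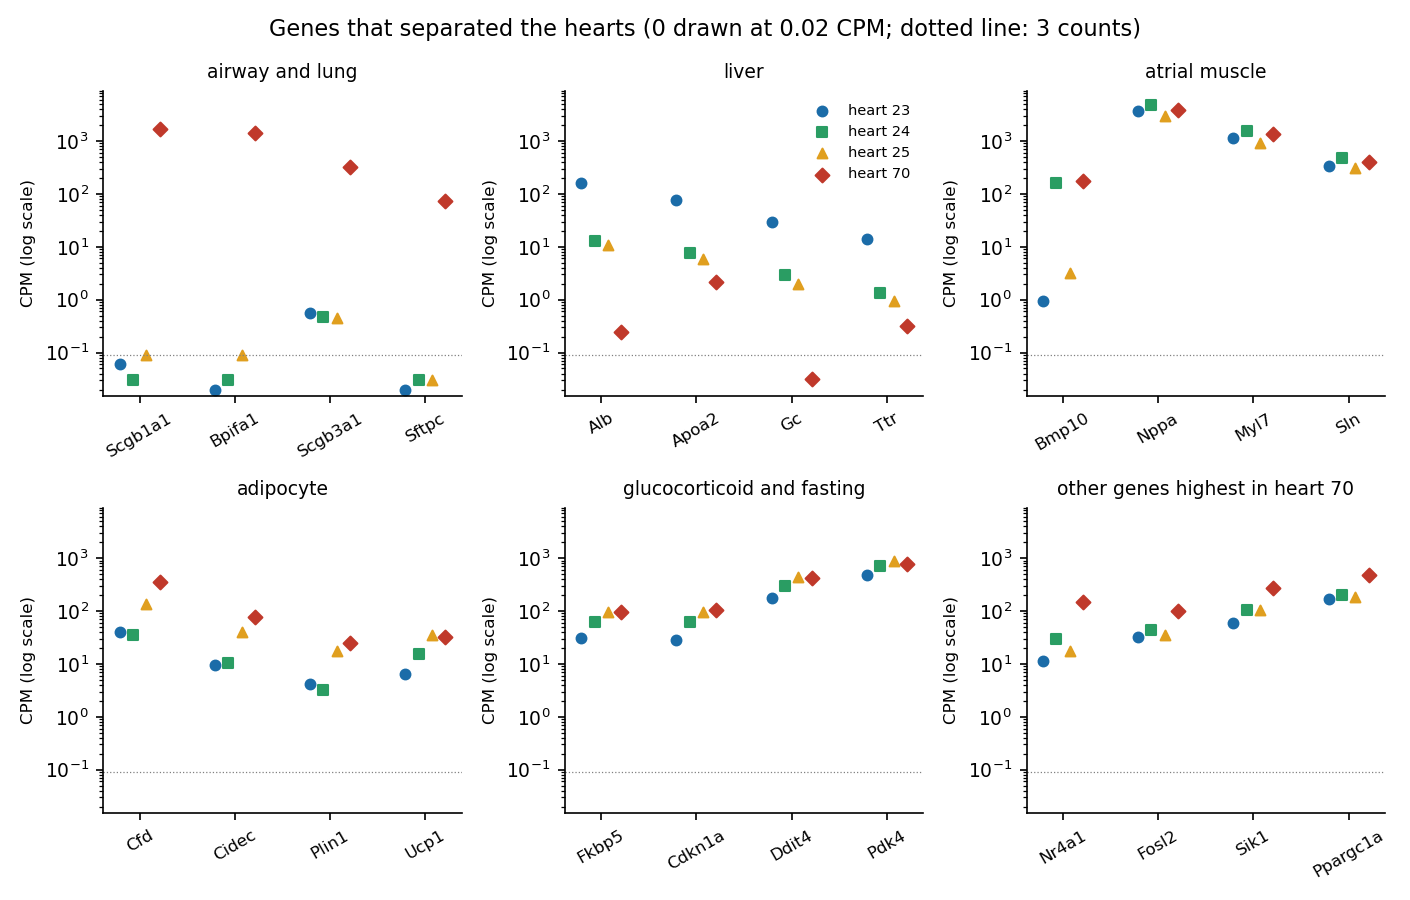
CPM (log scale) of 24 genes in 6 groups, 1 point per heart; a value of 0 is drawn at 0.02 CPM and the dotted line marks 3 counts. Airway genes lie high in heart 70 only, liver genes are highest in heart 23, Bmp10 is high in hearts 24 and 70, and adipocyte genes are higher in hearts 25 and 70.

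Genes induced by glucocorticoids and fasting were lowest in heart 23. Their list summed to 2137, 3098, 3947 and 3467 CPM. Of 13 tested members 11 were called, against 26.0% of all tested genes, and the median ratio was 1.69. All 11 were lowest in heart 23 and highest in heart 25 among hearts 23, 24 and 25. By summed counts 35.6% of all called genes were lowest in heart 23 and 34.5% highest in heart 25. Fkbp5, a chaperone of the glucocorticoid receptor, stood at 30.7, 61.9, 94.0 and 94.8 CPM. Cdkn1a, the cell cycle inhibitor p21, stood at 28.9, 63.1, 97.0 and 104.3 CPM and Ddit4, an inhibitor of mTOR signalling, at 178.2, 294, 434 and 415 CPM. Metallothionein Mt1 (346, 603, 764 and 547 CPM) and Txnip (601, 773, 1008 and 887 CPM), which limits glucose uptake, showed the same order of hearts 23, 24 and 25. Fkbp5 was 3.08-fold higher in heart 25 than in heart 23 (adjusted p = 4.79e-24, edgeR's quasi-likelihood test). Hours of death and feeding state are not given for the hearts. Of the clock genes 5 of 17 tested (29.4%) were called, near the 26.0% of all tested genes, and the list summed to 1069, 1013, 1024 and 1055 CPM. Among them Per1 stood at 124.6, 135.01, 149.3 and 189.9 CPM, and Nr1d1, a repressor of the clock, was lower in heart 70, at 149.4, 143.5, 122.8 and 76.2 CPM.

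Immediate early genes, which respond to stimuli within minutes, summed to 592, 694, 636 and 1107 CPM. Heart 70 was the highest. In the order of the hearts, Nr4a1, a nuclear receptor, stood at 11.3, 29.4, 17.5 and 147.6 CPM, Fosl2, a subunit of AP-1, at 32.5, 43.4, 35.3 and 100.9 CPM and Klf2, of endothelium under flow, at 174.96, 231, 199.2 and 303 CPM. Sik1, a kinase induced by cyclic AMP, also stood highest there, at 59.3, 106.6, 103.4 and 274 CPM, as did Irs2 of insulin signalling, at 12.3, 21.1, 7.95 and 69.6 CPM. Inducible heat shock genes were highest in heart 24. Of 8 tested, 7 were called with a median ratio of 1.58, against 26.0% of all tested genes. All 7 were highest in heart 24 among hearts 23, 24 and 25, as were 23.2% of all called genes by summed counts. Hsph1, a co-chaperone, stood at 103.96, 191.9, 131.6 and 102.7 CPM, and Hsp90ab1 at 2818, 3365, 2716 and 2506 CPM. MHC class II genes, of antigen-presenting cells, were highest in heart 25 and lowest in heart 24 in all 5 members called of 7 tested. By summed counts 34.5% of all called genes were highest in heart 25 and 22.0% lowest in heart 24. The invariant chain Cd74 stood at 292, 261, 410.4 and 349 CPM. Interferon response genes were level as a list, at 270.2, 259.8, 278 and 271 CPM. Of 18 tested, 9 were called in differing directions, against 26.0% of all tested genes.

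All 12 tested genes of hypertrophy and wall stress were called, against 26.0% of all tested genes, yet they did not share a direction. Of the 12, 6 were highest in heart 24, 4 in heart 25 and 2 in heart 23. Over all called genes these shares were 23.2%, 34.5% and 42.3% by summed counts. Acta1, the fetal and skeletal actin, stood at 90.9, 158.7, 134.5 and 178.7 CPM and Ankrd1, a stretch-responsive protein of the Z-disc, at 1173, 1313, 1611 and 873 CPM. The 2 genes were lowest in different hearts, Acta1 in heart 23 and Ankrd1 in heart 70. Among other most variable genes, Tfrc, the transferrin receptor, stood at 43.8, 29.6, 47.3 and 127.7 CPM with heart 70 highest. Bcl6, a transcriptional repressor, was highest in heart 24 at 23.2, 65.9, 28.4 and 46.1 CPM. The platelet chemokine Ppbp was lowest in heart 25, at 45.5, 64.5, 23.01 and 47.3 CPM. Cenpf, a kinetochore protein, was the only cell cycle gene of the list at 20 CPM or more, at 42.4, 18.8, 27.01 and 26.8 CPM.

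At the other end of the spread, 2381 of the 6134 genes, 38.8%, had an SD below 0.1. Among genes with a mean of at least 200 CPM the smallest was that of Mtfr1l, a mitochondrial fission regulator, at 233, 229.7, 228 and 229.5 CPM (SD of log2 CPM 0.013). Rps9, of the small ribosomal subunit, followed at 1285, 1249, 1263 and 1268 CPM and Ccng1, a cyclin of the p53 response, at 832, 834, 814 and 819 CPM. Ddx5, an RNA helicase, was the fourth at 515, 506, 501 and 501 CPM. Clptm1 was the fifth at 232, 236, 227 and 231 CPM, and Arhgdia, a regulator of small GTPases, came after it at 352, 352, 340.3 and 344 CPM. The next were Psme3, Kpna1, Asph, Ivns1abp and Tmbim6. Single libraries of 1 heart in 1 table differed with an SD of 0.097 for Mtfr1l and 0.15 for Rps9. Between the summed hearts the SDs were 0.013 and 0.017. Whether the order of such small SDs goes beyond the spread of libraries was not tested. Which genes varied least also rested on the scaling. With total counts none of the 15 genes with the smallest SD was among the 15 least variable, and Rps9 stood at 1240.0, 1217, 1280.4 and 1331 CPM with heart 70 the highest, while with DESeq2 size factors 11 of the 15 were.

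Genes in common use as references differed in how steady they were. Of 9 measured, Sdha had the smallest SD (0.046, at rank 414 of 6134 from the smallest). Hprt, of purine salvage, was next (0.054, at rank 622), at 41.7, 39.0, 38.8 and 41.4 CPM. Actb, cytoplasmic actin, had an SD of 0.092 (rank 2039), and Rpl32 one of 0.099, at 514, 520.0, 501 and 447 CPM. B2m, a part of MHC class I, had the largest SD, 0.22 (rank 5381), at 419, 374, 481 and 338 CPM, and was 1.30-fold higher in heart 25 than in heart 24 (adjusted p = 2.49e-09, edgeR's quasi-likelihood test). Polr2a, of RNA polymerase II, came next with 0.21 and was highest in heart 70, at 61.1, 60.6, 54.6 and 76.9 CPM. Of these 9 genes, 2 (22.2%) were called between hearts 23, 24 and 25, Actb and B2m. This was near the 26.0% of all tested genes.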

How the data were processed

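Total RNA of heart tissue was extracted with TRIzol and sequenced as amplicon libraries on an Ion Torrent S5, per the labels' protocols. The deposited files hold whole-number read counts per amplicon, not normalized, in 5 tables for these 22 libraries. The submitters' processing notes name the build mm10, and no source used here names the mapping and counting programs. Libraries were grouped by the label of genotype and treatment and summed by the number in the title. CPM were computed with edgeR 4.0.16 in R 4.3.3, with TMM scaling factors of 0.9652 to 1.0493. The ratio of the factors of hearts 70 and 23 was 0.12 (log2), a shift common to all genes between these hearts. SDs are of log2 CPM with a prior count of 2, over genes with a mean of at least 20 CPM (200 CPM for the least variable).

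Hearts 23, 24 and 25 were compared by edgeR's quasi-likelihood F test on their 18 libraries, after filterByExpr, with the table as a covariate and Benjamini-Hochberg adjustment. The 18 libraries held 4347841 to 6591391 counts. On simulated data for this comparison (11565 genes tested), 34% of the genes changed 1.2-fold and 84% of those changed 1.5-fold were recovered, with 14 false calls. Alternatives were DESeq2 1.42.0, other scalings, no filter, no covariate, fewer libraries and leaving out each heart. Summaries and figures used Python 3.11.15.

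Genes were named by rule: the 30 highest, leading family members, the 25 most and 15 least variable, the 20 widest called differences and the leading members of each list. A few genes that the rule takes are not reported here. Exceptions chosen after their values were seen are Adrb1, Cox4i2, Cox6a1, Cox8a, Ddit4, Eef1a1, Fosl2, Hprt, Ltf, Polr2a, Reg3g, Rpl22, Rplp0 and Ttn. The choice of hearts and the gene lists were made with earlier results of these data known.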

Additional observations from a re-analysis of the deposited data

Results flagged for a closer look

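A value was picked out when 1 of the 4 hearts lay so far from the others that its gap to the nearest, as a share of the whole range, exceeded Dixon's critical value for 4 samples. Of 216 values examined, 39 (18.06%) met this, 28 through heart 70, 6 through heart 23, 4 through heart 25 and 1 through heart 24. Chance alone gives about 1 in 20, but many of these genes were named for their spread or for a high value in 1 heart, and values of 1 heart are not independent, so that the share is no test.

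In heart 70 the high values were mostly those of airway and lung: Scgb1a1 at 1672 CPM, Bpifa1 at 1404 CPM, Scgb3a1 at 327 CPM, Cyp2f2 at 182.9 CPM, Scgb3a2 at 182.6 CPM, Bpifb1 at 101.3 CPM, Wfdc2 at 81.2 CPM, Sftpc at 72.6 CPM, Reg3g at 70.9 CPM, Ltf at 62.3 CPM and Sftpa1 at 38.9 CPM. The lung epithelial markers summed to 1798 CPM there, the mesothelial markers to 115.1 CPM, the Schwann cell markers to 37.7 CPM and the immunoglobulin genes to 6.42 CPM. Other genes high in heart 70 were Oxct1 at 919 CPM, Ppargc1a at 469 CPM, Nr4a1 at 147.6 CPM, Fosl2 at 100.9 CPM, Myh11 at 46.5 CPM, Eef1a1 at 4.77 CPM and Ckmt1 at 2.06 CPM. Low values in heart 70 were those of Malat1 at 12596 CPM, Myl3 at 7231 CPM, Tpm1 at 4255 CPM and Esrra at 174.3 CPM. The mitochondrial carriers, at 1.41% of counts, and the mitochondrial ribosomal proteins, at 0.653%, were low there too.

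In heart 23 the liver markers summed to 277 CPM, with Alb at 159.3 CPM, Apoa2 at 76.3 CPM and Ttr at 13.7 CPM. Xist was highest there at 1.76 CPM, while Slc25a31 was lowest at 0.924 CPM. In heart 25 Fabp4 was highest at 945.0 CPM, and Tnni3 at 5419 CPM, Asph at 540.2 CPM and Cacna1c at 246 CPM were lowest. In heart 24 the hypertrophy and wall stress genes summed to 7906 CPM, above the other hearts.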

How the results depend on the processing

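The count of 3032 genes called between hearts 23, 24 and 25 was 1955 without the table covariate, 1000 with only libraries a and b, 1494 and 1728 without the first and the second table, and 1261 to 2614 with 1 heart left out. Fewer libraries entered all but the first of these fits. The count of 608 genes of at least 1.5-fold was 964 without the filter on low counts, 1759 with all 4 hearts, and 212 to 451 with 1 heart left out. The genes with an SD above 0.5, 59 or 0.962% of those at 20 CPM, were 1.61% with a floor of 5 CPM, 0.508% (8 genes) with a floor of 100 CPM, and 0.645% (39 genes, without heart 70) to 1.56% (96 genes, without heart 24) with 1 heart left out. The 50% point of the counts stayed at 282 to 306 amplicons with 1 heart left out. For the genes named, 1639 alternative tests between hearts kept their side of the threshold, 29 gained it and the others lost it. Among the genes with a printed adjusted p below 0.05 (edgeR's quasi-likelihood test), Slc25a4 lost its call in 8 of 13 alternatives, Ppara in 4, and Gata4 lost it without heart 23 (0.954), without the third table (0.0883) and with libraries a and b only (0.218). Actb lost it without heart 24 (0.208), without heart 25 (0.0507) and without the first table (0.0849), Myh6 without the table covariate and Alb without heart 23 (0.294). Bmp10, Ucp1, Fkbp5, Cox6a2, Kcnip2 and B2m kept theirs in all of them.

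Leaving out the 10 highest amplicons moved every function share, by construction. The mean shares were then 6.85% for the sarcomere, 0.804% for calcium handling, 0.630% for phosphate and myoglobin and 0.639% for the carriers. Lists holding none of those 10 became larger: 2.90% for complex I, 0.663% for complex II, 1.58% for complex III, 3.05% for complex IV, 3.36% for ATP synthase, 2.72% for the TCA cycle, 2.88% for fatty acids, 1.36% for glycolysis and 0.349% for ketone use. Likewise import stood at 0.787%, mitochondrial and cytosolic ribosomal proteins at 0.808% and 0.901%, translation factors at 0.802%, matrix at 0.667% and natriuretic peptides at 0.573%. With libraries a and b only, cytosolic ribosomal proteins took 0.744%.

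Leaving out haemoglobin amplicons was not run, since none was analysed here. No paired analysis was possible because no groups were compared. Each heart is 1 animal, so that differences between hearts have no replicate of their own. Heart 70 and its tables cannot be told apart, and levels of different genes depend on their amplicons.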
